A study of Mus musculus with 32 samples.

Results

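The genes of the voltage-gated sodium, voltage-gated calcium and HCN channels were described in dendrites and somas of the same neurons. Members were the genes whose symbol marks a sodium channel alpha (Scn, ending in a) or beta (Scn, ending in b) subunit, a calcium channel pore (Cacna1), alpha2delta (Cacna2d) or beta (Cacnb) subunit, or an HCN subunit, with the Cacng genes left out. This rule, which used no measured value, took 35 of the 44081 genes in the table of 3′UTR read counts. The samples were 16 hippocampal neurons of embryonic day 18 C57BL/6 mice, cultured for 15 days, each severed by micropipette into its dendrites and its soma. RNA of each compartment was amplified by linear in vitro transcription (aRNA), in 3 rounds for neurons 1 to 4 and in 2 rounds for neurons 5 to 16, and gave 1 strand-specific library, so that there were 32 libraries in pairs. No neuron carried a treatment or an engineered allele, and the study's methods say that the neurons came from several cultures and days but not which neuron came from which, so that p-values measure the spread between these neurons.

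Voltage-gated sodium channels carry the rising phase of the action potential, and their beta subunits tune gating and anchor the channel. Voltage-gated calcium channels turn depolarization into calcium entry, with alpha2delta and beta subunits that bring the pore to the membrane. HCN channels open on hyperpolarization and carry the inward current known as Ih, which in hippocampal dendrites shapes how synaptic potentials sum on their way to the soma.

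Dendrite libraries had 646521 to 6954420 reads on 3′UTRs (median 1605714) and soma libraries 925525 to 21169974 (median 6165691). The mitochondrial share of 3′UTR reads was 2.39% to 35.8% in dendrites and 0.277% to 8.12% in somas. The dendrites of neurons 15 and 16 stood apart, with the highest mitochondrial shares, and the counts and fold changes that move most without them are given both ways below. The 7 interneuron markers summed to 2239 to 12666 counts per 1000000 (CPM) in dendrites (median 5007) and 1332 to 22078 CPM in somas (median 11049). Of these, Gad1 and Gad2 were read in all 32 libraries, with a median for Gad1 of 6990 CPM in somas. The subtype markers Sst and Vip had a median of 0 in both compartments. The subtype marker Pvalb was read in 15 dendrites and 14 somas, at medians of 108 and 15.4 CPM. The summed level of 5 astrocyte markers was 0 to 663 CPM in dendrites (median 33.1) and 0 to 146 CPM in somas (median 13.1). The 5 microglial markers summed to 0 to 387 CPM in dendrites (median 3.79) and 0 to 17.5 CPM in somas (median 0.281), and the 6 markers of oligodendrocytes and their precursors to 1.99 to 155 CPM and 0 to 117 CPM (medians 17.8 and 17.6). The 5 markers chosen for pyramidal neurons, summed to medians of 2494 CPM in dendrites and 521 CPM in somas. Most of that sum was Map2, a general dendritic gene (medians 2302 and 366 CPM). Grin1 (21.2 and 43.1 CPM) and Neurod6 (10.8 and 14.0 CPM) had their higher median in somas. Camk2a (27.1 and 12.3 CPM) and Slc17a7 (47.0 and 4.24 CPM) had theirs in dendrites. The part of glial RNA or of RNA quality in the differences below was not tested.

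The channel genes took a small share of each library. Together the 35 genes held 0.0324% to 0.253% of the 3′UTR reads in dendrites (median 0.178%) and 0.115% to 0.380% in somas (median 0.275%). Reads were found for 33 of them, and 2, among them Scn4a, the pore of skeletal muscle, had no read in any library. A gene was tested if 16 or more of the 32 libraries held a read of it, which 22 of the 35 genes met and 13 did not.

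**Figure D1:**
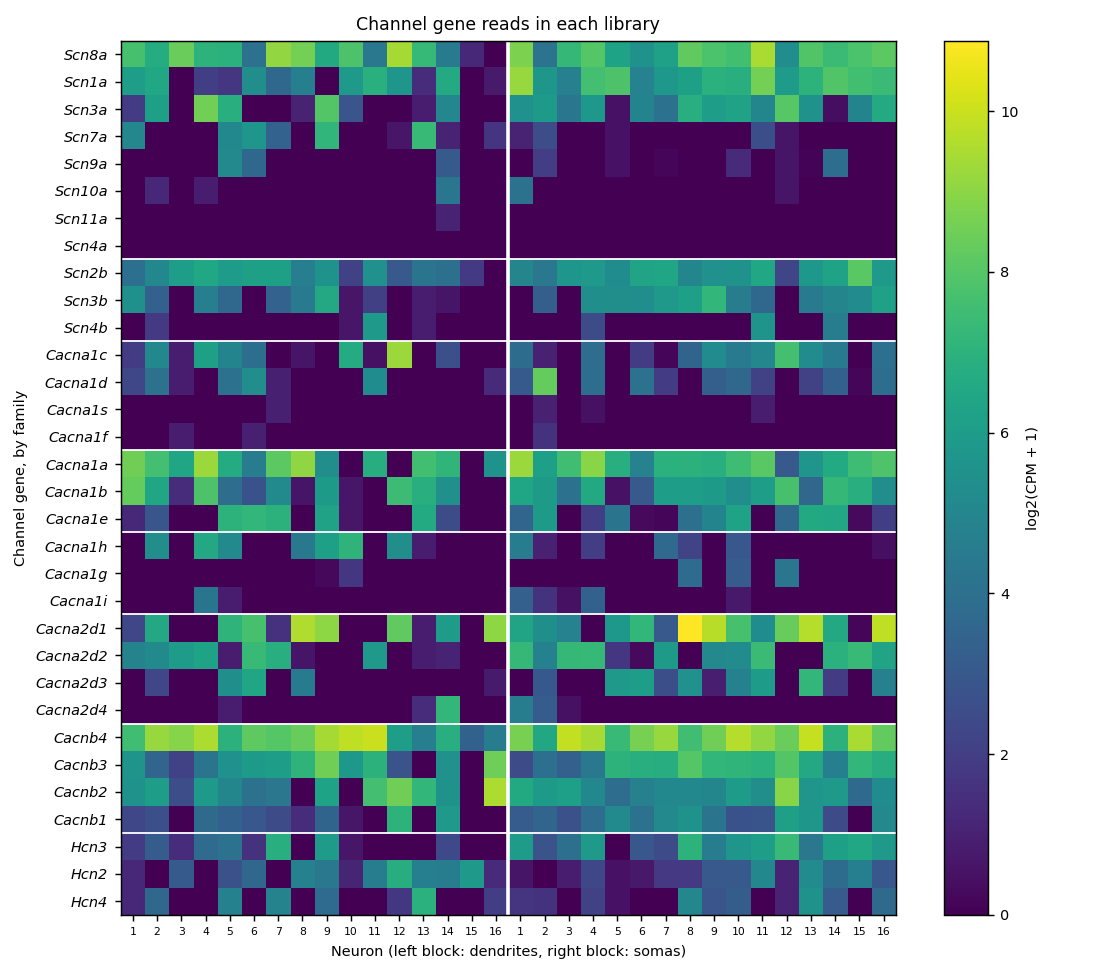
Reads of 32 channel genes in each library as log2(CPM + 1), where CPM is scaled by the TMM library size. Rows are genes grouped by family and ordered by total reads, columns are the 16 dendrites and the 16 somas by neuron. Cacnb4 has reads in all 32 libraries, and the dendrites of neurons 15 and 16 are dark for most genes.

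Dendrites held reads of fewer channel genes than the soma of the same neuron, as they did of genes in general. With at least 10 reads as the limit, 13.6 ± 5.01 of the 35 genes (SD, n = 16; range 4 to 22) were detected per dendrite library and 19.7 ± 3.48 (range 14 to 25) per soma library. Over all genes the numbers were 5827 ± 2064 and 9206 ± 1644, so that dendrites had 63.3% as many genes as somas, beside 68.9% for the channel genes. For the channel genes the soma had more in 14 neurons, the dendrites had more in 1 (neuron 5), and neuron 6 had equal numbers. The mean difference, dendrites minus soma, was -6.13 ± 6.01 genes (exact two-sided sign-flip permutation test, p = 0.00159, n = 16), -6.25 genes in the 12 neurons with 2 rounds (p = 0.0117 in the same exact permutation test) and -5.75 in the 4 neurons with 3 rounds, where every soma had more and the exact test cannot go below p = 0.125. Dendrite libraries were also the shallower ones, and after each pair was thinned to the smaller of its 3′UTR totals the difference was -4.75 ± 5.96 genes (exact permutation p = 0.00757). The lowest counts were the 4 genes in the dendrites of neuron 15 (Cacnb4 and Hcn2 among them) and the 6 in those of neuron 16 (Cacna1a, Cacna2d1, Cacnb2, Cacnb3 and Cacnb4 among them), and without these neurons the difference was -5.07 ± 5.58 genes (exact permutation p = 0.00635).

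Among the 22 genes tested there were 297 cases of a gene with at least 10 reads in a soma, and in 67 of them (22.6%) the dendrites of that neuron had no read, beside 26.7% of such cases over all genes tested. The opposite, at least 10 reads in dendrites and none in the soma, was found in 5 of 197 cases (2.54%), beside 5.60% over all genes tested. The filter left out the channel genes read mostly in dendrites, and over all 35 the shares were 78 of 315 (24.8%) and 15 of 217 (6.91%), beside 33.0% and 15.8% over all genes. The 5 cases were 1 each for Cacna1c, Cacna1d, Hcn3, Hcn4 and Scn3b.

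A stable presence in dendrites was found for 5 of the 35 genes, which were read in 15 or 16 of the 16 dendrites. All 5 were tested genes, and they made up 22.7% of the 22 channel genes tested, beside 17.1% of all genes tested. Among them, the calcium channel beta subunit Cacnb4 was read in 16 dendrites, and the sodium channel beta subunit Scn2b and the pore Scn8a in 15 each, and none of the 5 was a calcium channel pore or an alpha2delta subunit. With a minimum of 10 reads, 3 of them (Cacnb4 among them) were left, or 13.6% of the 22, beside 6.99% of all genes tested. Thinning left all 5, and counts on exons gave 6, with Scn1a added.

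**Figure D2:**
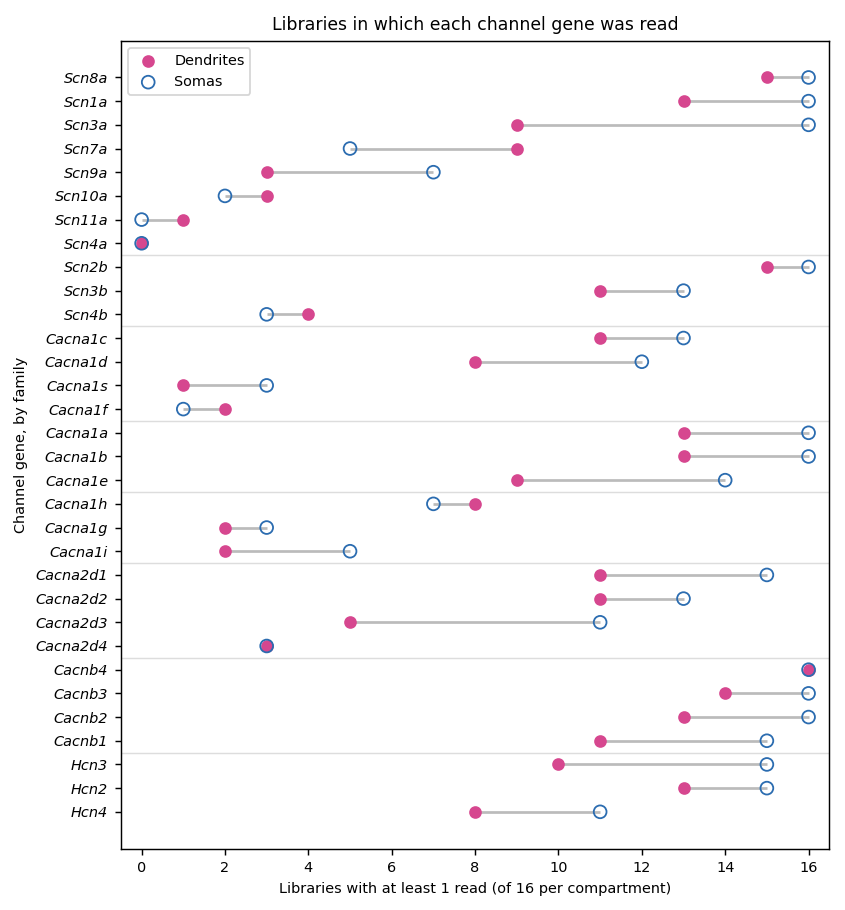
Number of dendrites (filled) and somas (open) of the 16 neurons with at least 1 read for each of 32 channel genes, by family. Scn8a, Scn2b and Cacnb4 reach 15 or 16 in both compartments, and Scn7a, Scn10a, Scn11a, Scn4b, Cacna1f and Cacna1h have more dendrites than somas.

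The level of each gene was then compared between compartments in edgeR over 10880 genes, with the neuron as a block. A positive log2 fold change means a higher CPM in dendrites. Of the 22 channel genes, 0 were called higher in dendrites at an adjusted p of at most 0.05, beside 0.827% of all genes tested, and 1, Scn1a, was called higher in somas, beside 5.71% of all genes tested. At an unadjusted p under 0.05 the counts were 0 and 6 (Scn1a, Scn3a, Hcn3, Cacna2d3, Scn3b and Cacna2d1), beside 3.55% and 26.7% of all genes tested, and DESeq2 called 0 and 9, beside 4.26% and 46.2%. Exon counts gave 0 and 0 calls (1.0% and 2.62% of all genes) and rescaling to the median gene 0 and 0 (5.42% and 0.827%). The ERCC spike-in scale gave 0 and 12 (0.126% and 64.4%). That fit also used exon counts of neurons 3 to 16, with 21 channel genes, so that the scale was not changed alone. The share called higher in somas among channel genes (1 of 22) was therefore near that of all genes.

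Over the 22 genes the median log2 fold change was -1.16, and that of all genes tested was -1.49, a difference of 0.33. Of the 22, 20 were below 0, as were 78.8% of all genes, and 12 were above the median gene. When libraries were rescaled to put the median gene at 0, the median of the channel genes was 0.37 and 10 were below 0. The sign of a small fold change therefore followed the scaling. Without neurons 15 and 16 the median was -0.75 beside -1.13 for all genes, and the log2 fold changes that moved by over 1.5 times were -0.16 for Scn8a, -0.51 for Scn2b, -0.37 for Cacna1a, -0.75 for Cacna1b, -0.20 for Cacna1c, -1.09 for Cacna2d2, -0.39 for Cacnb4 and -0.21 for Hcn4. No channel gene had an unadjusted p under 0.05 for a compartment difference that depended on the rounds of amplification (smallest p = 0.0968, Scn3b, edgeR interaction), with 288 of all genes under it and 0 called.

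**Figure D3:**
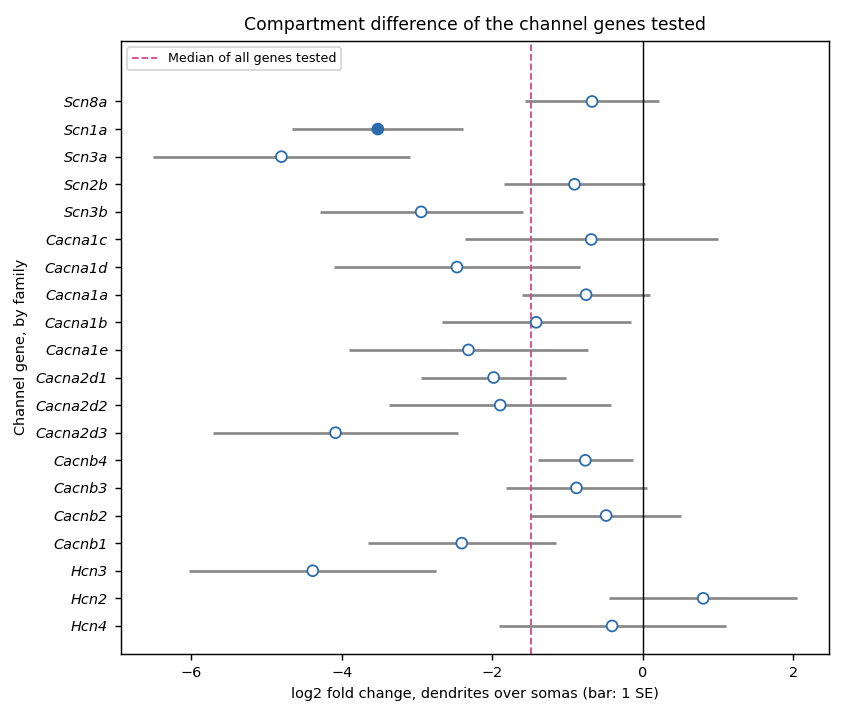
Log2 fold change of dendrites over somas with 1 standard error (SE) for 20 of the 22 channel genes tested, by family. The filled point is Scn1a, the 1 gene with an adjusted p of at most 0.05, and the dashed line is the median of all genes tested (-1.49). Hcn2 is the 1 gene drawn to the right of 0.

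Of the sodium channel pores, Scn1a encodes a pore-forming alpha subunit that is abundant in inhibitory neurons, and lies at chr2:66270778-66440840 on the minus strand (mm10, as are all positions here). It was read in 16 somas and 13 dendrites. Dendrite levels were 0, 18.1 and 118.9 CPM (lowest, median, highest) and soma levels 25.4, 125.9 and 594.9 CPM. The soma was higher in 14 of 16 neurons, 9 dendrites lay below the lowest soma, and the other 7 fell inside the range of the somas. Scn1a was 11.5-fold lower in dendrites (log2 fold change -3.52, SE 1.14, adjusted p = 0.0491 in edgeR).

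The Scn1a call in edgeR was close to the threshold. When each neuron was left out in turn, it held in 2 of 16 fits (without neuron 2 and without neuron 6) and was lost in the other 14, with adjusted p from 0.0343 to 0.131 and log2 fold changes from -3.90 to -2.85. Without neurons 15 and 16 the log2 fold change was -2.84 (adjusted p = 0.103), and with counts on exons it was -2.33 (adjusted p = 0.185). DESeq2, which called 46.2% of all genes higher in somas, gave -3.85 (adjusted p = 1.28e-06). The spike-in scale with exon counts of neurons 3 to 16, which called 64.4%, gave -5.18 (adjusted p = 0.00521 in edgeR).

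Scn8a, the pore that dominates mature initial segments and nodes and is also placed along dendrites, is on chr15:100869858-101045938, plus strand. It was read in 15 dendrites and 16 somas, at 0, 126.5 and 675 CPM in dendrites and 16.8, 207 and 716 CPM in somas. The groups overlapped widely, with 13 of 16 dendrites inside the range of the somas and the dendrites higher in 7 neurons. The log2 fold change was -0.67 (SE 0.89, adjusted p = 0.598).

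Scn3a, a pore that is prominent in the developing brain and declines after birth, is on chr2:65457118-65567627, minus strand. It was present in all 16 somas (0.336, 45.6 and 266 CPM) and in 9 dendrites (0, 0.940 and 371.5 CPM). In 7 neurons the dendrites had no read while the soma had at least 10, yet the dendrites of neuron 4 held more than any soma. The log2 fold change was -4.80 (SE 1.71, adjusted p = 0.0695), and -0.57 (adjusted p = 0.784) when reads on exons were counted. It was called in the fits that left out neuron 2, 5 or 14.

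The other alpha subunits were sparse. Scn7a encodes a sodium-sensing channel of glia and of some neurons that is not opened by voltage in the usual way. Most of its reads lay in dendrites, with 1228 reads in 9 dendrites and 66 reads in 5 somas. Of the dendrite reads, 896 came from neuron 9 and 195 from neuron 13, whose somas had 0, and 57 of the 66 soma reads came from neuron 11, whose dendrites had 0. The highest level was 157.7 CPM in dendrites and 5.16 CPM in somas. Scn7a did not pass the filter, and in a fit with no filter its log2 fold change was 4.50 (SE 1.75, adjusted p = 0.196).

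Scn9a, Scn10a and Scn11a, the pores of peripheral sensory neurons, had 180, 67 and 2 reads in all. Scn1a, Scn3a, Scn7a and Scn9a lie within the stretch of chromosome 2 from 65457118 to 66784914, and Scn10a and Scn11a within that of chromosome 9 from 119608456 to 119825456. Neighbours in the first stretch therefore differed widely in reads, though the lengths counted were not matched between these genes. The gene Scn2a1 (now Scn2a), which lies in the same stretch and encodes another main brain pore, is not a member because its symbol ends in a digit. It was read in all 32 libraries, at medians of 33.7 CPM in dendrites and 80.8 CPM in somas (log2 fold change -1.50, SE 1.13, adjusted p = 0.345).

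Of the sodium channel beta subunits, Scn2b, which is linked to the pore by a disulfide bond, is on chr9:45117782-45130070, plus strand. Levels were 0, 28.5 and 87.5 CPM in dendrites and 3.82, 52.9 and 274 CPM in somas, with 13 dendrites inside the range of the somas and 3 below it. The soma was higher in 10 of 16 neurons (log2 fold change -0.91, SE 0.93, adjusted p = 0.492). Its neighbour on the same chromosome, Scn4b, was read in 4 dendrites and 3 somas and was not tested. Scn3b, a non-covalently bound beta subunit, was read in 11 dendrites (median 2.02 CPM) and 13 somas (median 33.5 CPM), with the soma higher in 12 neurons (log2 fold change -2.94, SE 1.35, adjusted p = 0.136).

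In the next comparison the 2 most read genes of a family were set against each other within each neuron, as the difference of their log2(CPM + 1) differences, dendrites minus soma. The test was chosen after values were seen and covers 7 families, of which 5 pairs are given here. The dendrite level of Scn8a relative to the soma stood above that of Scn1a by 2.29 ± 3.20 (SD, n = 16) and in 12 of 16 neurons (exact two-sided sign-flip permutation test, p = 0.0139, 0.0487 adjusted over the 7 pairs). Differences on this scale understate those of genes with few reads.

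This difference was as large in libraries thinned to equal depth (2.30, adjusted exact permutation p = 0.0410) and had the same sign in 4 of 4 neurons with 3 rounds (3.61), but it was sensitive to single neurons. For Scn8a against Scn1a the adjusted p ranged from 0.0276 to 0.0946 over the 16 exact permutation tests that left out 1 neuron and stayed at most 0.05 in 4 (without neuron 6, 11, 14 or 16). Without neurons 15 and 16 the difference was 2.66 with an adjusted exact permutation p of 0.0667, and within the 12 neurons with 2 rounds it was 1.86 with an adjusted exact permutation p of 0.325. With 10 CPM added in place of 1 it was 1.51 (adjusted exact permutation p = 0.0725). The other pairs given here had an adjusted exact permutation p of 0.761 (Cacna1a against Cacna1b, Cacna1c against Cacna1d, Cacna2d1 against Cacna2d2, and Cacnb4 against Cacnb3).

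**Figure D4:**
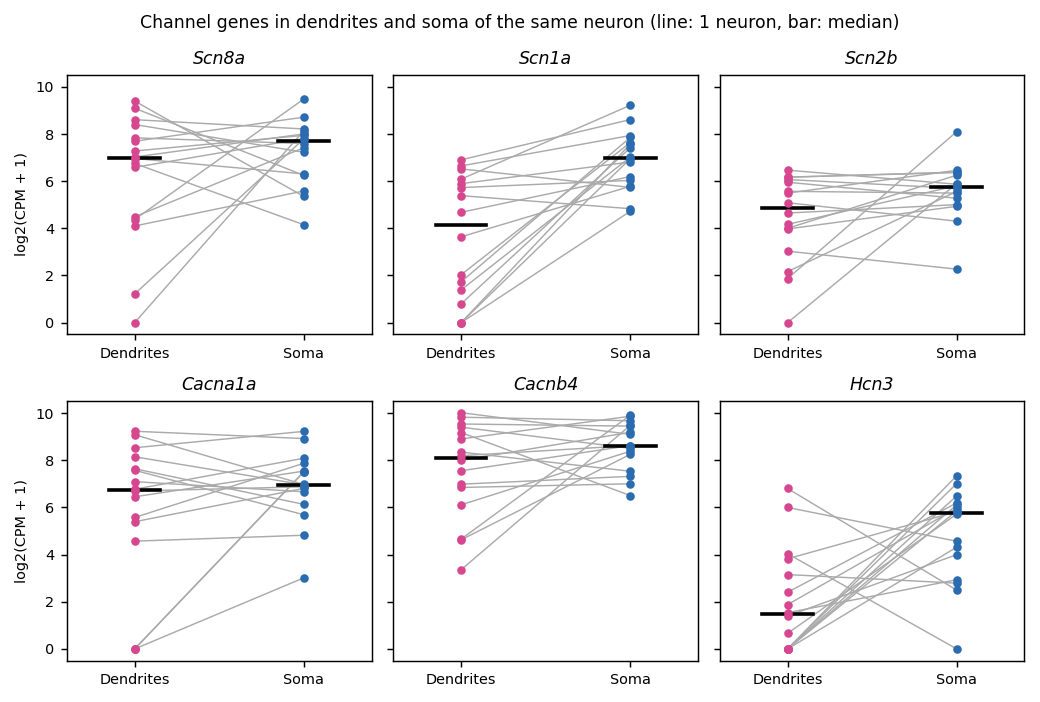
Levels of 6 channel genes as log2(CPM + 1) in the dendrites and the soma of each of the 16 neurons, with 1 line per neuron and a bar at the median. For Scn1a 14 of 16 lines run upward to the soma, for Hcn3 12 do, and for Scn8a 9 do.

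Calcium channel pores were led by Cacna1a, the P/Q-type pore that drives transmitter release at many synapses (chr8:84388440-84640246, plus strand). Dendrites held 0, 105.6 and 600.6 CPM and somas 7.10, 124 and 599 CPM. In 3 neurons (10, 12 and 15) the dendrites had no read, and of the other 13 dendrites 12 were inside the range of the somas. The dendrites were higher in 6 of 16 neurons (log2 fold change -0.75, SE 0.85, adjusted p = 0.535).

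Cacna1b, the N-type pore (chr2:24603887-24763152, minus strand), had 0, 24.6 and 318.5 CPM in dendrites and 0.461, 62.0 and 206 CPM in somas, with the dendrites higher in 6 neurons (log2 fold change -1.42, SE 1.25, adjusted p = 0.425). Only 293 of its reads were counted on exons, beside 8701 on its 3′UTRs, and on the exon counts its log2 fold change was 0.54. Cacna1e, the R-type pore, was read in 9 dendrites and 14 somas, and 4 dendrites (neurons 5, 6, 7 and 13) lay above the highest soma while 11 had fewer than 10 reads (log2 fold change -2.32, SE 1.59, adjusted p = 0.303). Cacna1e also had fewer reads on exons (1498) than on 3′UTRs (4822), and on exon counts its log2 fold change was 2.94 (unadjusted p = 0.0342, adjusted p = 0.174 in edgeR), the opposite direction.

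The L-type pores Cacna1c and Cacna1d, which couple calcium entry to transcription in neurons, were uneven between neurons. Cacna1c (chr6:118587240-119196418, minus strand) was read in 11 dendrites and 13 somas, at 0, 1.75 and 597 CPM in dendrites and 0, 13.6 and 204 CPM in somas. Its highest value in each compartment came from neuron 12, and the dendrites were higher in 7 neurons (log2 fold change -0.69, SE 1.68, adjusted p = 0.788, and 1.92 on exon counts). Cacna1d (chr14:30039939-30491455, minus strand) was read in 8 dendrites (0, 0.409 and 39.9 CPM) and 12 somas (0, 5.37 and 312 CPM), with the soma higher in 10 neurons (log2 fold change -2.47, SE 1.64, adjusted p = 0.288). The L-type pores of skeletal muscle (Cacna1s) and retina (Cacna1f) had 14 and 4 reads.

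None of the 3 T-type pores, which open near rest and support burst firing, passed the filter. Cacna1h was read in 8 dendrites and 7 somas, with 984 and 256 reads. Its dendrite reads came mostly from neurons 9 (451), 10 (228) and 4 (122), and its highest level was 132 CPM in dendrites and 22.7 CPM in somas. With no filter its log2 fold change was 3.21 (SE 1.68, adjusted p = 0.382). Cacna1g was read in 2 dendrites and 3 somas (5 and 202 reads), and Cacna1i in 2 and 5 (24 and 96 reads).

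Of the alpha2delta subunits, extracellular proteins that carry the channel to the surface and bind gabapentin in the case of Cacna2d1 and Cacna2d2, 3 of 4 were tested, and all 3 log2 fold changes lay below the median gene. Cacna2d1 (chr5:15934691-16374511, plus strand) reached the highest level of the 35 genes in any library, with 0, 33.7 and 774 CPM in dendrites and 0, 86.4 and 1879 CPM in somas, the highest of both in neuron 8. The soma was higher in 12 neurons (log2 fold change -1.98, SE 0.97, adjusted p = 0.158). Cacna2d2 (chr9:107399612-107529343, plus strand) was at 0, 0.941 and 158.5 CPM in dendrites and 0, 48.6 and 168 CPM in somas, with the soma higher in 10 neurons (log2 fold change -1.89, SE 1.47, adjusted p = 0.362).

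Cacna2d3 was read in 5 dendrites and 11 somas, and in 1 neuron the dendrites were the higher side (log2 fold change -4.08, SE 1.63, adjusted p = 0.0970, and -0.83 with adjusted p = 0.709 on exon counts). The dendrites lay within the range of the somas for all 3, since some somas had no read either. Cacna2d4 had 328 reads in all, 272 of them in the dendrites of neuron 14, which leaves 3 dendrite reads beside 53 soma reads.

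The intracellular beta subunits, which bind the pore and set its surface level, included the most read channel gene, Cacnb4 (chr2:52428320-52676831, minus strand). It had at least 10 reads in all 32 libraries, with 9.27, 273 and 1039 CPM in dendrites and 89.8, 394 and 963 CPM in somas. Of the dendrites, 4 lay below the lowest soma and 1 (neuron 11) above the highest, and the dendrites were higher in 6 of 16 neurons (log2 fold change -0.76, SE 0.63, adjusted p = 0.396). The 95% interval of this difference, -2.01 to 0.48, leaves room for a level in dendrites above or well below that in somas.

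Cacnb3 (chr15:98630840-98644529, plus strand) was at 0, 46.4 and 364 CPM in dendrites and 4.75, 113 and 256 CPM in somas (log2 fold change -0.88, SE 0.94, adjusted p = 0.507). The dendrites were higher in 5 neurons, and the dendrites of neurons 9 and 16 lay above every soma. Cacnb2 had similar medians in both compartments, 46.6 CPM in dendrites and 39.5 CPM in somas, and its highest level, 740.0 CPM, was in the dendrites of neuron 16 (log2 fold change -0.49, SE 0.99, adjusted p = 0.742). Cacnb1, by contrast, was read in 11 dendrites and 15 somas, with the soma higher in 13 neurons (log2 fold change -2.41, SE 1.25, adjusted p = 0.181).

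Of the HCN subunits, Hcn3, a slow and less studied one, is on chr3:89146074-89160196, minus strand. It was at 0, 1.77 and 110.9 CPM in dendrites and 0, 53.7 and 162 CPM in somas. In 6 neurons the dendrites had no read while the soma had at least 10, and the soma was higher in 12 neurons (log2 fold change -4.38, SE 1.64, adjusted p = 0.0797). It was called in the fit that left out neuron 5.

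Hcn2, an abundant thalamic and brain-wide subunit, had a median of 9.37 CPM in dendrites and 3.35 CPM in somas. The dendrites were higher in 9 neurons (log2 fold change 0.80, SE 1.25, adjusted p = 0.661). On the spike-in scale, with exon counts of neurons 3 to 16, its log2 fold change was -2.01. Hcn4, the subunit of the cardiac pacemaker, was read in 8 dendrites and 11 somas (log2 fold change -0.41, SE 1.51, adjusted p = 0.864), with 34 reads on exons beside 1557 on 3′UTRs.

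Channel genes in 1 neuron did not all peak together. The soma of neuron 12 held the highest value for 7 of the 22 genes tested and that of neuron 13 for 5, while the highest dendrite values were spread over 12 neurons, with 4 genes each in neurons 6 and 12.

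Levels can be compared between genes only where the counted length is alike. The isoform table counts reads in windows of 500 nt up to each 3′ end, longer where neighbouring ends were joined, and the level of the most read end of each gene was therefore set side by side as reads per 1000000, by its median over libraries. In dendrites the order of the highest genes given here was Cacnb4 (116), Cacna1a (71.8), Cacnb3 (62.6), Scn2b (32.5) and Scn8a (25.1). In somas it was Cacnb4 (169), Cacna1a (155), Cacnb3 (139.6), Scn8a (111.2), Scn1a (92.0) and Cacna2d1 (78.3). The medians of neighbours in these orders lay inside each other's range over neurons, and the orders are descriptions without a test.

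The table numbers the 3′ ends of each gene but gives no positions, so ends are named by number and their order along the transcript is not known here. Of the 35 channel genes, 28 had more than 1 end listed, and in 20 genes the top end held over 95% of the reads. The share of the higher-numbered of the top 2 ends was compared by an exact signed-rank test in 11 channel genes and 3508 genes in all. It differed at p under 0.1 for 0 of the 11 channel genes, beside 8.44% of all genes tested, and 0 of all genes passed after adjustment. For Cacna2d2, Scn3b and Scn8a every library of the pairs tested had its reads on the same end.

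Cacnb2, with 43.9% of its reads on its top end, had end 2 at 65.0% ± 41.9 in dendrites and 43.7% ± 41.7 in somas over 6 neurons (3 higher and 3 lower, exact signed-rank test, p = 0.844). For Scn1a the share of end 2 was 18.5% ± 33.2 in dendrites and 14.9% ± 18.8 in somas over 9 neurons (exact signed-rank test, p = 0.578). For Cacna1a, 10 of 12 dendrites with at least 10 reads and 11 of 16 somas had all reads on end 1 of the top 2.

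Genes for proteins that bind or place these channels were read as a list of 23, of which 18 were tested. Sptbn4, the beta-IV spectrin of the axon initial segment, was called higher in somas (log2 fold change -5.03, SE 1.57, adjusted p = 0.0439, edgeR), with the soma higher in 14 neurons and reads in 5 dendrites and 15 somas. It was the 1 partner of 18 called higher in somas, beside 5.71% of all genes tested. None was called higher in dendrites, beside 0.827% of all genes tested. Of the 18 log2 fold changes 16 were below 0, beside 78.8% of all genes. Their median was -1.11, beside -1.49 for all genes. Ank3, the ankyrin G that gathers sodium channels at the initial segment, was read in all libraries and was fitted at a log2 fold change of -0.89 with an SE of 0.76 (adjusted p = 0.407), and Ank2, ankyrin B, at 0.71 with an SE of 0.65 (adjusted p = 0.437).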

How the data were processed

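Dendrites and soma of each of 16 neurons were sequenced as 32 libraries. The authors trimmed the reads, aligned them (STAR 2.4.0, mm10, per the labels), counted with VERSE and deposited whole-number read counts without normalization, on the union of 3′UTRs per gene (44081 genes), on windows of 500 nt or more before each 3′ end (74532 features), and on exons and 92 spike-ins. Reads without molecular identifiers are not independent molecules, and precision was taken from the spread between neurons. Samples were grouped and paired by their labels.

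From these counts, genes read in 16 or more libraries were compared with edgeR 4.0.16 in R 4.3.3 (TMM, quasi-likelihood test with robust fit, neuron as a block, Benjamini-Hochberg over 10880 genes, adjusted p at most 0.05). An SE is the log2 fold change over the root of F. DESeq2 1.42.0, other scalings, filters and sample sets were alternatives. Single values per neuron were tested by exact sign-flip permutation, and 3′ end shares with exact signed-rank tests where at least 10 reads lay on the top 2 ends in both compartments of at least 5 neurons, in Python 3.11 with SciPy 1.17.1. The edgeR and signed-rank procedures were tested on simulated data. The design named the distal share of the top 2 ends, and since positions are not given in the table the higher-numbered end was used.

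Both compartments came from the same cell. As a check, deviations from gene means correlated by 0.0854 ± 0.0766 (SD, n = 16) within neurons and by -0.00527 ± 0.0529 (n = 240) between different neurons, across genes, and 0 pairs of libraries held identical counts. In GENCODE M21, no annotated UTR of the 35 genes overlapped exons of another gene on its strand. The reads were counted on Ensembl and UCSC 3′UTRs and on published 3′UTR extensions, so this check may not cover every region counted.

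Members, the partner list and the marker lists were chosen with earlier results of these data known. Genes given with full values were those called, the 2 most read of each family, those in at least 15 of 16 dendrites and those past p of 0.1 in the isoform test. The Scn3a, Scn3b, Scn7a, Cacna1e, Cacna1i, Cacna2d3, Cacna2d4, Cacnb1, Cacnb2, Hcn2, Hcn4 and Scn2a1 values were added after they were seen, as were Ank2 and Ank3. The values of 3 of the 35 genes are not reported here, and they enter counts and medians alone.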

Additional observations from a re-analysis of the deposited data

Results flagged for a closer look

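In the 4 neurons with 3 rounds of amplification, the log2(CPM + 1) difference between dendrites and soma was checked for a neuron far from the other 3 in each of the 22 channel genes tested, where chance alone marks about 1 in 20 groups. In 2 of them 1 neuron stood apart. For Scn3b, neuron 1 had a difference of 5.45, the dendrites being higher, while the other 3 lay between -0.76 and 0.05. For Cacna2d3, neuron 2 had a difference of -0.68 while the other 3 were at 0, with no read in either compartment.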

How the results depend on the processing

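The values that moved were mostly counts near a threshold. The count of channel genes called higher in somas, 1 in edgeR, was 0 with the median gene at 0, with no filter, with a filter of at least 10 reads in at least 8 libraries, with counts on exons, without the replicate block, in the neurons with 2 rounds alone, in those with 3 rounds alone and without neurons 15 and 16 (an alternative chosen after the data were seen). It was 9 with DESeq2. On the ERCC spike-in scale, with exon counts of neurons 3 to 16, it was 12 (beside 64.4% of all genes). With 1 neuron left out it was 0 to 2, and the count called higher in dendrites was 0 in every setting run. The median log2 fold change of the channel genes, -1.16, was 0.37 with the median gene at 0, -3.57 on the spike-in scale, 0.12 in the neurons with 3 rounds, -0.75 without neurons 15 and 16 and -0.36 without the block, and -1.47 to -0.64 with 1 neuron left out. Genes in at least 15 dendrites numbered 3 at 10 reads. Channel genes whose 3′ end shares differed at an unadjusted p under 0.1 numbered 1 in the neurons with 2 rounds and 1 in the sign-flip test. No share of all genes is given for these settings, so the counts cannot set channel genes apart from other genes. Without the block, all genes called numbered 157 higher in dendrites and 77 higher in somas, against 90 and 621 with it, and with the median gene at 0 they numbered 590 and 90.

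Signs turned for genes that were not called. With the median gene at 0, log2 fold changes became 0.78 for Cacna1a, 0.12 for Cacna1b, 0.78 for Cacna1c, 0.65 for Cacnb3, 0.77 for Cacnb4, 0.63 for Scn2b, 0.86 for Scn8a, 1.05 for Cacnb2 and 0.95 for Hcn4. In the 4 neurons with 3 rounds the first 7 of these became 0.12, 0.52, 2.39, 0.26, 0.23, 0.34 and 0.54 in the same order, and Scn3b became 1.18. Counts on exons gave 0.54 for Cacna1b, 1.92 for Cacna1c and 2.94 for Cacna1e. The fit without the replicate block gave 0.0022 for Cacna1b, 1.06 for Cacna1c, 0.51 for Cacna1e, 0.65 for Cacnb2 and 0.73 for Hcn4. The spike-in scale, with exon counts of neurons 3 to 16, gave -2.01 for Hcn2. It gave 1.27 for Cacna1e, whose sign had already turned on exon counts alone. With 1 neuron left out Cacna1c ranged from -1.29 to 0.14 (above 0 without replicate 13 or 16), Cacnb2 from -0.72 to 0.0053 (above 0 without replicate 15) and Hcn4 from -0.95 to 0.17 (above 0 without replicate 4, 8, 10, 14 or 16). The pair Cacna1c against Cacna1d became -0.48 in the neurons with 2 rounds, and Cacnb4 against Cacnb3 became -0.15 with 10 CPM added. In the neurons with 3 rounds Cacna1a against Cacna1b became -0.24 and Cacnb4 against Cacnb3 -0.12. With 1 neuron left out, Cacna1a against Cacna1b ranged from -0.10 to 0.64 and Cacna1c against Cacna1d from -0.05 to 1.01. Cacna2d1 against Cacna2d2 ranged from -0.86 to 0.27 in these fits. The causes were not tested.

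Many dendrite values rest on few or no reads, so that a gene not read there was not detectable at this depth, and CPM values carry no information on the amount of RNA in a compartment.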
